A study of Mus musculus with 27 samples.

Results

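Slc2a1, Slc2a3, Hk1, Hk2, Pfkp, Aldoa, Pgk1, Ldha, Ldhb and Pdk1 were followed as a set of 10 genes that carry glucose into the cell, break it down to lactate, or decide whether its carbon is oxidised in the mitochondria. They were found in the deposited count tables by their gene symbol, and all 10 were present in every table, out of 27080 genes listed in all. RNA-seq was available for 12 libraries of J1 cells, a mouse ESC line that was grown without feeders on gelatin in serum medium with LIF at 1000 U/mL. Control cells that carried a non-targeting shRNA (shNT, the labels' shCon, 3 libraries) were compared with cells in which the histone acetylation reader *Gas41* (listed as *Yeats4*) was knocked down by shGas41-1 (3 libraries) or shGas41-2 (2 libraries) and which were harvested 8 days after infection. A second set of control vector cells was sampled undifferentiated with LIF (EB day 0, 2 libraries) and as embryoid bodies after 6 days as aggregates in low-attachment wells without LIF (EB day 6, 2 libraries). Every library therefore came from cells that carried an shRNA or control vector, all of a single line, and EBs at day 6 are a mixture of cell types.

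Glycolysis turns glucose into pyruvate in a chain of enzymatic steps, and pyruvate is then either reduced to lactate or oxidised in the mitochondria. Pluripotent stem cells are known to rely heavily on glycolysis even with oxygen at hand, and many genes of the pathway are textbook targets of the hypoxia-inducible factors and of Myc. The products of *Slc2a1* and *Slc2a3* (GLUT1 and GLUT3) take up glucose. *Hk1* and *Hk2* encode hexokinases, which trap glucose in the cell by phosphorylation. *Pfkp* encodes a phosphofructokinase, the committed and most strongly regulated step, *Aldoa* the aldolase that splits the sugar, and *Pgk1* a kinase that recovers ATP. *Ldha* and *Ldhb* encode the subunits of lactate dehydrogenase, and *Pdk1* a kinase that switches off pyruvate dehydrogenase and so keeps pyruvate from being oxidised in the mitochondria.

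In mm9, the genome build to which the authors mapped their reads, GENCODE lists all 10 as protein-coding genes. *Slc2a1* lies at chr4:118781316-118809935, *Slc2a3* at chr6:122677827-122751658, *Hk1* at chr10:61731603-61842656, *Hk2* at chr6:82675019-82724448, *Pfkp* at chr13:6579014-6648023, *Aldoa* at chr7:133938748-133944265, *Pgk1* at chrX:103382439-103399038, *Ldha* at chr7:54096845-54110997, *Ldhb* at chr6:142438769-142456477 and *Pdk1* at chr2:71711281-71741915. Some members have close copies. Of the 50-base windows of the annotated exons, 42.6% of those of *Pgk1* occurred unchanged in other genes, mainly the copy *Gm5537*, against 6.71% for *Ldha* (*Ldha-ps2* and others), 7.97% for *Ldhb* (*Gm5514*), 1.44% for *Aldoa* (*Aldoart1*) and 1.40% for *Slc2a3*. Reads from these stretches may have been split or dropped in counting, so the level of *Pgk1* in particular is uncertain. *Pfkp* shares 372 exonic bases with *Pitrm1* on the opposite strand, *Hk1* 157 with *2210417K05Rik* and *Slc2a1* 105 with *Gm12868*, and reads there cannot be told apart where counting ignores strand.

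The letters upstream of the start sites are shown for the 4 members that were at least 2-fold higher and the 2 that were at least 2-fold lower at EB day 6, because short motifs differ between them. Members called at lower fold, described below, did not follow that split. The letters shown are the 250 bases before a RefSeq start in the mouse build GRCm38.p6, with matches to ACGTG or GCGTG on either strand in capitals. These are the core letters that hypoxia-inducible factors are known to bind, and ACGTG is contained in CACGTG, the E-box of Myc and related factors.
Ldha, chr7:46845554-46845803, plus strand: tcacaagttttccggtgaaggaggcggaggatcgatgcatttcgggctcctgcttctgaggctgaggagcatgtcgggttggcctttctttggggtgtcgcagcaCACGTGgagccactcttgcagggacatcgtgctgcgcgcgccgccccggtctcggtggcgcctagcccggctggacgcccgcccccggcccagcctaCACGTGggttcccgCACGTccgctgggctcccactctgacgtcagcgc
Pgk1, chrX:106186850-106187099, plus strand: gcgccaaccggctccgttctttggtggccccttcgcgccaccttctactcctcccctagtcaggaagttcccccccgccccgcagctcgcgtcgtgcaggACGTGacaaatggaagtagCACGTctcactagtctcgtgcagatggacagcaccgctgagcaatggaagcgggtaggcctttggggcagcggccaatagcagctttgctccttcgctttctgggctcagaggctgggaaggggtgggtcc
Slc2a1, chr4:119108495-119108744, plus strand: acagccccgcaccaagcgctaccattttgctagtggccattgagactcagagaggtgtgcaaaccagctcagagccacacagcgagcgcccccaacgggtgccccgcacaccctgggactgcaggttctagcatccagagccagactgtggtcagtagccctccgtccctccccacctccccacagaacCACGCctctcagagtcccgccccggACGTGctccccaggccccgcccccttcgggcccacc
Aldoa, chr7:126799255-126799504, minus strand: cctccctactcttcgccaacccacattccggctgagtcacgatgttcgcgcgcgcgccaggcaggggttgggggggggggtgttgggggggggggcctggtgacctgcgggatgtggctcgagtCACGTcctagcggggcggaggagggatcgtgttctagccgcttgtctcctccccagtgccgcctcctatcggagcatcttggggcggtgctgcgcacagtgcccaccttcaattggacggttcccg
Hk1, chr10:62340422-62340671, minus strand: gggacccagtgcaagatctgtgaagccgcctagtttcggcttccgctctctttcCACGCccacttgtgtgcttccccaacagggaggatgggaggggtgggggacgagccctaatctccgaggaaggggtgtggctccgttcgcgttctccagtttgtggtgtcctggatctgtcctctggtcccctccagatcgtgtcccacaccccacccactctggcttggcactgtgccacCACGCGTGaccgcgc
Pfkp, chr13:6648772-6649021, minus strand: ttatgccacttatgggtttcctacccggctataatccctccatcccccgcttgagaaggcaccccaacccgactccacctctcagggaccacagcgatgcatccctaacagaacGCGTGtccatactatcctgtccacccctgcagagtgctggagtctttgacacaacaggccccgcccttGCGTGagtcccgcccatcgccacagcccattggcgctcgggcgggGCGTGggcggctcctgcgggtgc

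RefSeq windows were found for 9 of the 10 members (14 windows, several genes having more than 1 start). The *Ldha* window holds 5 matches to ACGTG, of which 4 are the overlapping strands of 2 CACGTG hexamers, the *Pgk1* window 2, and the *Slc2a1* and *Aldoa* windows 1 each. The *Slc2a1* window also holds 1 match to GCGTG, and a second *Ldha* window, at another start, holds 1 match to GCGTG and none to ACGTG. The *Hk1* and *Pfkp* windows hold none, and 3 matches to GCGTG each. A second window of *Hk1* and of *Pdk1* and another of *Aldoa*, all at other starts, hold neither motif. The window of *Hk2*, a member called down at EB day 6, holds 2 matches to ACGTG. The first window of *Pdk1*, a member called up, holds 1 match to GCGTG and none to ACGTG. The *Ldhb* window holds 1 match to GCGTG. Over 32851 windows of the same length, 16.6% held ACGTG, 28.2% GCGTG and 6.02% CACGTG. Per gene, counting all its windows, ACGTG was present in 21.6% of the genes at least 2-fold higher at EB day 6, in 18.9% of those at least 2-fold lower and in 24.3% of all genes tested that had a window. GCGTG was present in 44.1%, 40.6% and 48.2% of these genes, in the same order. Neither motif thus was more frequent among the genes that rose at EB day 6 than among all genes tested. A match is only a stretch of letters, not evidence of binding.

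The libraries held between 59224537 and 81524773 counts, and 3 counts, the floor used here, equal 0.0368 to 0.0507 CPM, counts per 1000000 counts of the library. The level of *Yeats4* was 63.2, 54.5 and 52.1 CPM in the shNT libraries. It was 3.50, 4.42 and 4.79 CPM with shGas41-1 and 8.68 and 7.68 CPM with shGas41-2, so the knockdown was visible in each library. Replicates differed by more than sampling noise, and shGas41-1 replicate 3 stood apart (chi-square per degree of freedom 117 and 191 against the other 2, which differed from each other by 29.4). Pluripotency markers (8 genes) summed to between 5791 and 6995 CPM in the undifferentiated libraries and to 2177 and 2347 CPM at EB day 6. Of these, 7 were called down, 6 of them at least 2-fold, and 1 up. *Pou5f1* fell by less than 2-fold (log2 fold change −0.34, 1120 to 836 CPM on average), and *Tdgf1* rose (0.67, 537 to 802 CPM). Primitive streak and mesoderm markers (6 genes) rose from at most 15.3 CPM to 1242 and 1797 CPM. Primed epiblast markers (4 genes) rose from at most 114 CPM to 1028 and 1335 CPM, with all 4 genes called up. Of the endoderm markers 5 of 5 tested genes were called up, of the trophoblast markers 2 of 2, of the fibroblast markers 2 of 3 and of the neural markers 1 of 2 (*Nes*, not *Pax6*), whereas blood and cardiac markers summed there to no more than 2.25 CPM and *Afp*, *Neurog2* and *Hbb-y* were at 0 or not listed. In bulk RNA, fewer cells of a type and less RNA per cell cannot be told apart, and the part of the cell mixture in the results that follow was not tested.

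In control ESCs the members spanned a wide range of levels per kilobase of exon (RPKM). In shNT, *Ldha* (288 ± 25.2 RPKM, SD, n = 3) and *Aldoa* (284 ± 27.9) were the highest, followed by *Pgk1* (182 ± 15.7), *Ldhb* (125 ± 17.0), *Slc2a3* (106 ± 9.90) and *Slc2a1* (72.5 ± 14.0). *Pdk1* (24.0 ± 3.40), *Hk2* (18.3 ± 4.12), *Pfkp* (9.53 ± 1.48) and *Hk1* (7.31 ± 1.33) formed the low end. The enzymes of the upper, committing steps were thus far less abundant as RNA than those of the lower steps. Between neighbours in this order, the libraries of *Ldha* and *Aldoa*, of *Ldhb* and *Slc2a3*, of *Pdk1* and *Hk2* and of *Pfkp* and *Hk1* overlapped. The order changed at EB day 6, when *Ldha* (900 ± 136 RPKM, n = 2) stood alone at the top, *Pgk1* (525 ± 82.9) overlapped *Aldoa* (454 ± 20.6), *Slc2a1* (197 ± 14.4) lay above *Slc2a3* (105 ± 11.9), and *Pfkp* (2.19 ± 0.432) and *Hk1* (1.44 ± 0.187) were the lowest. The members together made up between 2799 and 3960 CPM in the undifferentiated libraries of all 4 groups, knockdown included, and 6546 and 7201 CPM at EB day 6.

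**Figure D1:**
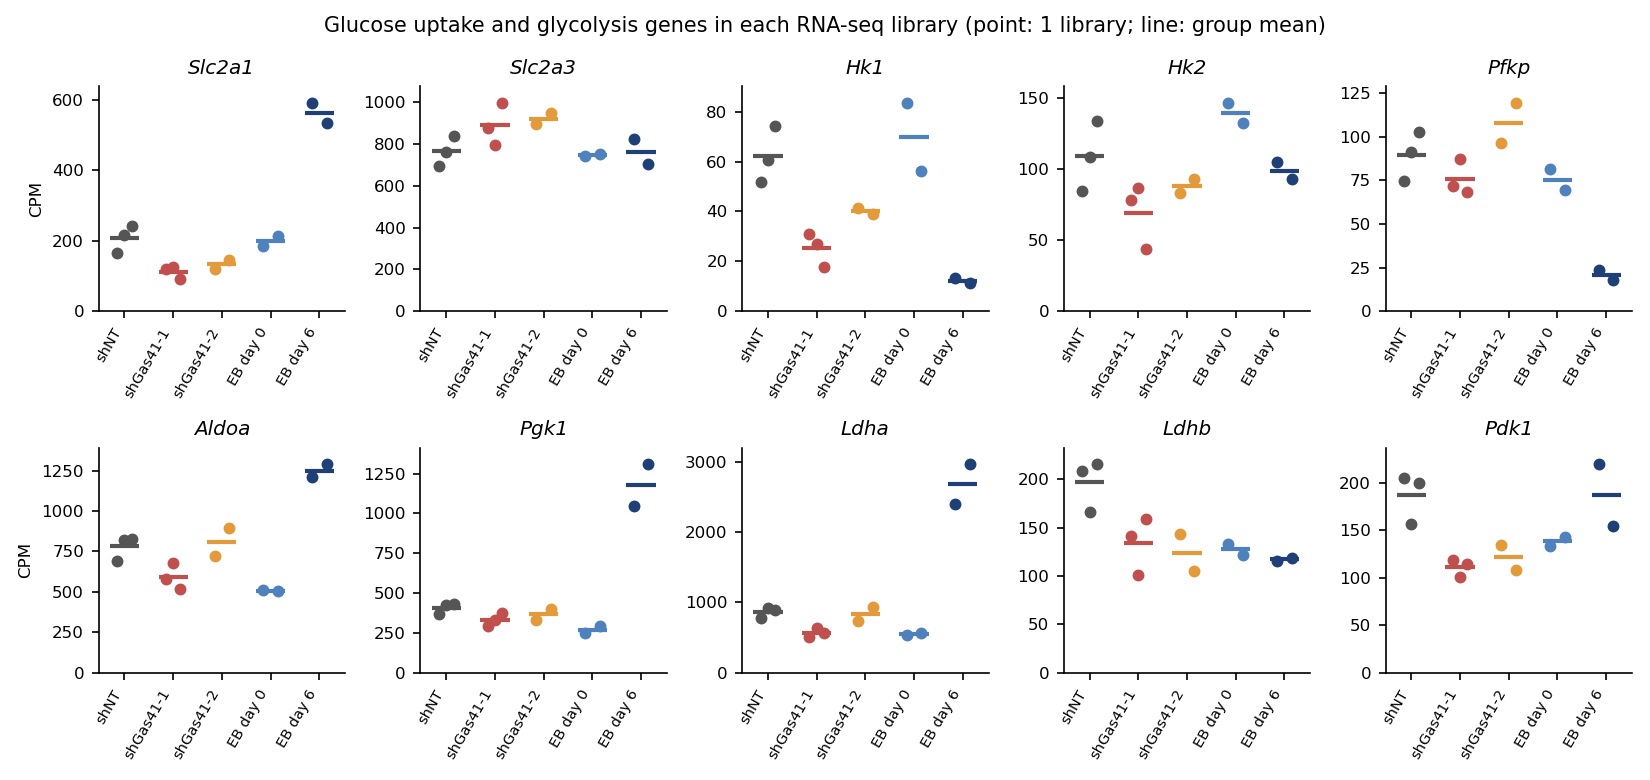
CPM (vertical axes, linear, from 0) of each member in every RNA-seq library, with 1 point per library and a line at the group mean. *Ldha*, *Pgk1*, *Aldoa* and *Slc2a1* stand highest at EB day 6 and *Hk1* and *Pfkp* lowest, whereas the knockdown libraries stay near the control range for most members.

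EB differentiation was the comparison in which the members moved most, and they moved in both directions. At EB day 6, *Ldha*, *Pgk1*, *Slc2a1* and *Aldoa* rose at least 2-fold and *Hk1* and *Pfkp* fell at least 2-fold, *Pdk1* rose and *Hk2* fell by less, and *Slc2a3* and *Ldhb* did not pass the test. Thus 4 of 10 members were called at least 2-fold up, where 16.6% of the 18287 genes tested were, and 2 were called at least 2-fold down, where 14.7% of all genes were. At any fold, 5 members were called up and 3 down, against 30.5% and 28.4% of all genes, so that 8 of 10 members were called in a comparison in which most genes were called. A call at any fold meant an FDR of 0.05 or less in edgeR's quasi-likelihood test, and the median log2 fold change was 0.31 over the members and close to 0 over all genes.

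The glucose transporters parted ways. *Slc2a1* was at 184 and 212 CPM in EB day 0 and at 591 and 533 CPM at EB day 6, a 3.01-fold rise (log2 fold change 1.59, standard error 0.10, FDR = 5.7e-05). *Slc2a3* was at 745 and 752 CPM in EB day 0 and at 825 and 703 CPM at EB day 6. The libraries of the 2 days overlapped for *Slc2a3*, and the test was not passed (0.11 on the log2 scale, standard error 0.10, FDR = 0.35). Per kilobase, *Slc2a1* therefore supplied 40.1% ± 2.29 (SD, n = 2) of the summed *Slc2a1* and *Slc2a3* RNA at day 0 and 65.2% ± 0.902 at day 6.

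At the hexokinase step both members fell. *Hk1* was at 83.7 and 56.1 CPM in EB day 0 and at 13.4 and 11.1 CPM at EB day 6, a 5.38-fold fall (log2 fold change −2.43, standard error 0.20, FDR = 1.3e-04). *Hk2* was at 147 and 133 CPM and then at 105 and 92.8 CPM, and fell 1.33-fold (log2 fold change −0.42, standard error 0.09, FDR = 0.0084). The *Hk2* call is the weaker, since its FDR was 0.073 without EB day 0 replicate 2, 0.063 without EB day 0 replicate 3 and 0.23 with all 12 libraries in a single fit. *Hk1* supplied 25.7% ± 4.00 of the summed *Hk1* and *Hk2* RNA per kilobase at day 0 and 7.98% ± 0.324 at day 6.

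At the phosphofructokinase step *Pfkp* fell while the other family genes rose. *Pfkp* was at 81.7 and 69.2 CPM in EB day 0 and at 23.4 and 17.7 CPM at EB day 6, a 3.46-fold fall (log2 fold change −1.79, standard error 0.15, FDR = 1.4e-04). *Pfkl*, the liver-type gene of the family, was at 43.9 and 40.2 CPM and then at 266 and 299 CPM (log2 fold change 2.83, standard error 0.10, FDR = 8.2e-06), and *Pfkm*, the muscle type, rose with a log2 fold change of 0.97. *Pfkp* thus supplied 31.9% ± 0.711 of the summed phosphofructokinase RNA per kilobase at day 0 and 2.73% ± 0.647 at day 6, and *Pfkl* 38.1% ± 1.24 and 79.9% ± 3.38. The sum over the 3 genes went from 25.2 ± 2.38 to 80.5 ± 3.24 RPKM.

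The lower steps rose. *Aldoa* was at 511 and 505 CPM in EB day 0 and at 1211 and 1291 CPM at EB day 6, a 2.61-fold rise (log2 fold change 1.38, standard error 0.09, FDR = 4.8e-05). *Aldoc* rose more steeply (log2 fold change 2.98), but *Aldoa* still supplied 98.3% of the summed aldolase RNA per kilobase at day 6. *Pgk1* was at 249 and 290 CPM and then at 1046 and 1309 CPM, a 4.64-fold rise (log2 fold change 2.21, standard error 0.14, FDR = 5.7e-05). The limit from its near-identical copy, stated above, applies here.

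The lactate dehydrogenase subunits also parted ways. *Ldha* was at 530 and 560 CPM in EB day 0 and at 2396 and 2969 CPM at EB day 6, a 5.23-fold rise that was the largest among the members (log2 fold change 2.39, standard error 0.13, FDR = 3.1e-05). *Ldhb* was at 133 and 122 CPM and then at 116 and 119 CPM. Its 2 groups just failed to overlap, yet the difference did not pass the test (log2 fold change −0.04, standard error 0.08, FDR = 0.72). *Ldha* supplied 69.2% ± 2.14 of the summed *Ldha* and *Ldhb* RNA per kilobase at day 0 and 92.3% ± 0.955 at day 6. *Pdk1* was at 134 and 143 CPM and then at 220 and 154 CPM, and was called up (log2 fold change 0.51, standard error 0.16, FDR = 0.028). That call rests on few libraries, since the FDR of *Pdk1* was 0.17 without EB day 0 replicate 2, 0.19 without EB day 0 replicate 3 and 0.055 without EB day 6 replicate 2, when its log2 fold change was 0.26.

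**Figure D2:**
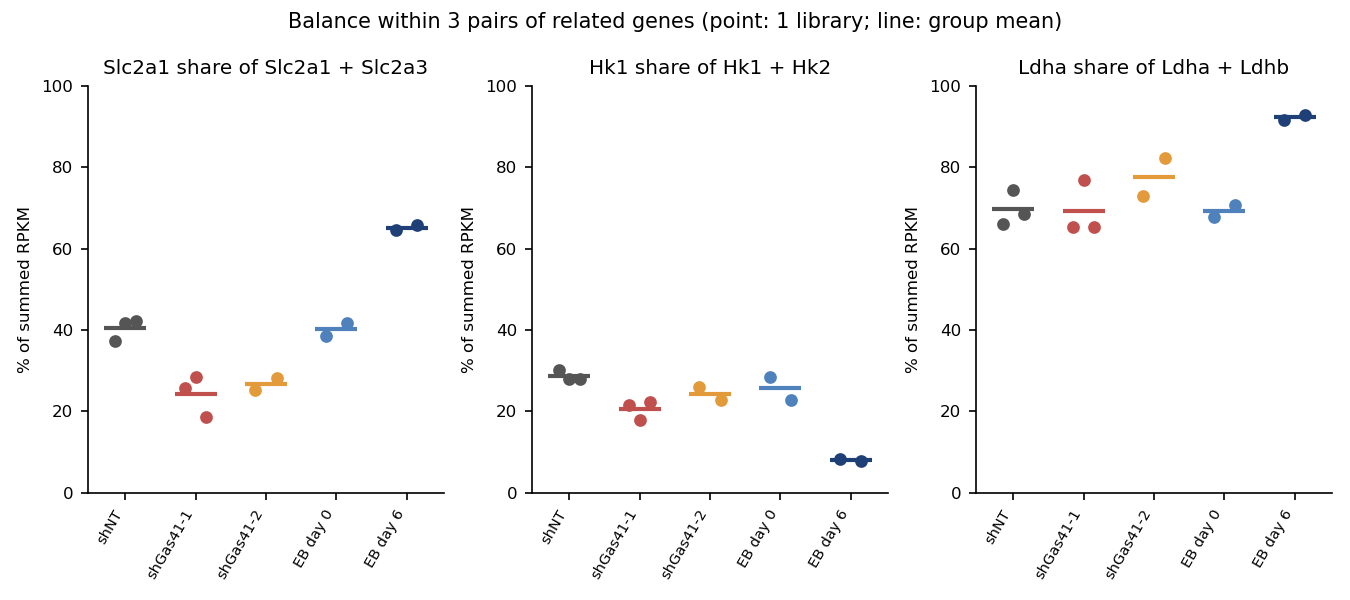
Share of the first gene in the summed RPKM of the pairs Slc2a1 and Slc2a3, Hk1 and Hk2, and Ldha and Ldhb (vertical axes, percent from 0 to 100), with 1 point per library and a line at the group mean. At EB day 6 the mean shares are 65.2%, 7.98% and 92.3%, and in the knockdown libraries the Slc2a1 share lies below that of every shNT library.

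Knockdown by shGas41-1 lowered 4 members and raised none. *Hk1* fell at least 2-fold, and *Slc2a1*, *Pdk1* and *Ldha* fell by less. The 1 member called at least 2-fold down stands beside 2.40% of the 18274 genes tested, and the 4 called down at any fold beside 7.73%, while 0 members were called up at least 2-fold, where 7.90% of all genes were, or at any fold, where 10.8% were. The median log2 fold change was −0.49 over the members and 0.02 over all genes, and 9 of 10 members had a negative value.

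*Hk1* was at 52.0, 60.6 and 74.4 CPM in shNT and at 30.8, 27.1 and 17.8 CPM in shGas41-1 (replicates 1 to 3 in this order, here and below), a 2.35-fold fall (log2 fold change −1.23, standard error 0.20, FDR = 0.0053). The groups did not overlap, and the call held without each library in turn, with log2 fold changes between −1.38 and −1.08. *Slc2a1* was at 164, 216 and 242 CPM in shNT and at 120, 125 and 90.4 CPM in shGas41-1, a 1.76-fold fall (log2 fold change −0.82, standard error 0.17, FDR = 0.013). *Pdk1* was at 205, 157 and 200 CPM in shNT and at 119, 100 and 114 CPM in shGas41-1, a 1.59-fold fall (log2 fold change −0.67, standard error 0.15, FDR = 0.017). Every knockdown library lay below every control library for all 3 of these genes, a separation that was not counted over all genes. *Ldha* was at 774, 915 and 890 CPM and then at 507, 636 and 567 CPM, a 1.43-fold fall (log2 fold change −0.51, standard error 0.14, FDR = 0.035).

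The calls other than *Hk1* depended on single libraries. Without shNT replicate 2 the FDR was 0.060 for *Slc2a1* and 0.14 for *Ldha*, without shNT replicate 3 it was 0.054, 0.11 and, for *Pdk1*, 0.065, and without shGas41-1 replicate 1 it was 0.051, 0.13 and 0.061. Leaving out shGas41-1 replicate 3, the library that stood apart, kept all 4 calls and added *Ldhb* (log2 fold change −0.67, FDR = 0.030), and the log2 fold change of *Hk1* was then −1.08. With all libraries, *Ldhb* was at 209, 166 and 216 CPM in shNT and at 142, 101 and 159 CPM in shGas41-1 (log2 fold change −0.47, FDR = 0.13).

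For the other members no test was passed with shGas41-1. *Hk2* was at 84.5, 109 and 134 CPM in shNT and at 78.2, 86.5 and 43.5 CPM in shGas41-1, where replicate 3 was far below the others (log2 fold change −0.58, FDR = 0.12). *Aldoa* was at 693, 823 and 829 CPM in shNT and at 576, 678 and 516 CPM in shGas41-1, without overlap (log2 fold change −0.33, FDR = 0.12). *Pgk1* ranged from 367 to 433 CPM in shNT and from 292 to 375 CPM in shGas41-1, and *Pfkp* from 74.9 to 103 CPM and from 68.4 to 87.5 CPM. *Slc2a3* was the only member with a positive value, at 697, 762 and 840 CPM in shNT and at 875, 795 and 998 CPM in shGas41-1, and the groups overlapped (log2 fold change 0.30, FDR = 0.18). Together the members made up 3319 to 3960 CPM in shNT and 2812 to 2967 CPM in shGas41-1.

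With shGas41-2, compared with the same shNT libraries, none of the 10 members passed edgeR's quasi-likelihood test in either direction at any fold, where 3.97% of the 18405 genes tested were called down and 5.94% up, and 0.869% and 3.96% at 2-fold or more. Scaling by library totals alone turned the balance of all calls from 1094 up and 730 down to 961 up and 1289 down. Without adjustment 5 members and 5209 of all genes passed the 0.05 threshold in that test. DESeq2 called 1 member up and 4 down, beside 1520 and 1412 of all genes tested. With replicate number as a block, 3536 genes were called up and 3630 down, members among them in both directions. *Pdk1* was at 135 and 109 CPM (log2 fold change −0.54, standard error 0.14, FDR = 0.053) and *Ldhb* at 143 and 105 CPM (−0.59, standard error 0.16, FDR = 0.055). *Hk1* was at 41.4 and 39.1 CPM (log2 fold change −0.55, standard error 0.15, FDR = 0.062). *Slc2a1* was at 119 and 146 CPM (log2 fold change −0.56, standard error 0.18, FDR = 0.082). For these 4 genes both libraries lay below every shNT library, but how many of all genes lay apart likewise was not counted. *Slc2a3* was at 895 and 949 CPM, above every shNT library (log2 fold change 0.35, standard error 0.10, FDR = 0.070). *Ldha* was at 730 and 927 CPM, on either side of the shNT range (log2 fold change 0.03), and *Aldoa*, *Pgk1*, *Pfkp* and *Hk2* also overlapped with shNT. Without shNT replicate 1, 5 members were called down, where 1933 of all 18327 genes tested were. These members included *Hk1* (log2 fold change −0.66, FDR = 0.0026) and *Slc2a1* (−0.70, FDR = 0.0021). Scaling by library totals alone called 4 members down, beside 1289 of 18405 genes. Keeping genes of low counts also called 4 down, beside 969 of 25216 genes.

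Tested directly against each other, the 2 shRNAs gave no called difference in edgeR's quasi-likelihood test (0 of 19146 genes up or down, 0.00% each way, with 1348 genes, 4 of them members, past the 0.05 threshold before adjustment and 72 up and 99 down in DESeq2, none of them a member). Among the members, *Hk1* had the largest difference, with a log2 value 0.68 lower with shGas41-1 (standard error 0.20, FDR = 0.47), followed by *Ldha* (−0.54, FDR = 0.46), *Pfkp* (−0.51, FDR = 0.55) and *Aldoa* (−0.46, FDR = 0.56). For these 4 genes the libraries of the 2 shRNAs did not overlap, but how many of all genes lay apart likewise was not counted. That a member was called with shGas41-1 and not with shGas41-2 is therefore not shown to be a difference between them.

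The balance of the transporters and hexokinases differed from shNT with both shRNAs. *Slc2a1* supplied 37.4%, 41.8% and 42.2% of the summed *Slc2a1* and *Slc2a3* RNA per kilobase in shNT 1 to 3, 25.8%, 28.5% and 18.7% in shGas41-1 1 to 3, and 25.2% and 28.1% in shGas41-2 1 and 2. *Hk1* supplied 30.1%, 28.0% and 28.0% of the *Hk1* and *Hk2* sum in shNT, 21.6%, 18.0% and 22.3% in shGas41-1 and 25.9% and 22.7% in shGas41-2. In both pairs every knockdown library lay below every shNT library, while the *Ldha* share overlapped between shNT (66.1% to 74.3%) and both knockdowns (65.3% to 82.3%). In EB day 0, the other undifferentiated control set, the *Slc2a1* share was 38.5% and 41.8%, above every knockdown library. The *Hk1* share was 28.5% and 22.8% in EB day 0, above shGas41-1 but overlapping with shGas41-2. These shares are descriptions and were not tested.

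A second set of control cells puts the size of these changes in view. The EB day 0 cells, undifferentiated and grown with LIF like shNT, had *Ldha* at 530 and 560 CPM, *Aldoa* at 511 and 505 CPM and *Pgk1* at 249 and 290 CPM, all below every shNT library and within or below the range of shGas41-1. *Ldhb* and *Pdk1* were also lower in EB day 0 than in shNT without overlap, whereas *Slc2a1*, *Slc2a3*, *Hk1*, *Hk2* and *Pfkp* overlapped between the control sets. *Hk1* and *Slc2a1* were thus the called members whose shGas41-1 libraries lay below both control sets, with EB day 0 at 83.7 and 56.1 CPM for *Hk1* and at 184 and 212 CPM for *Slc2a1*, and *Pdk1* likewise lay below both, at 134 and 143 CPM in EB day 0. The control sets were not tested against each other here, and how many of all genes lay apart between them was not counted. Culture set and group cannot be told apart in that comparison.

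**Figure D3:**
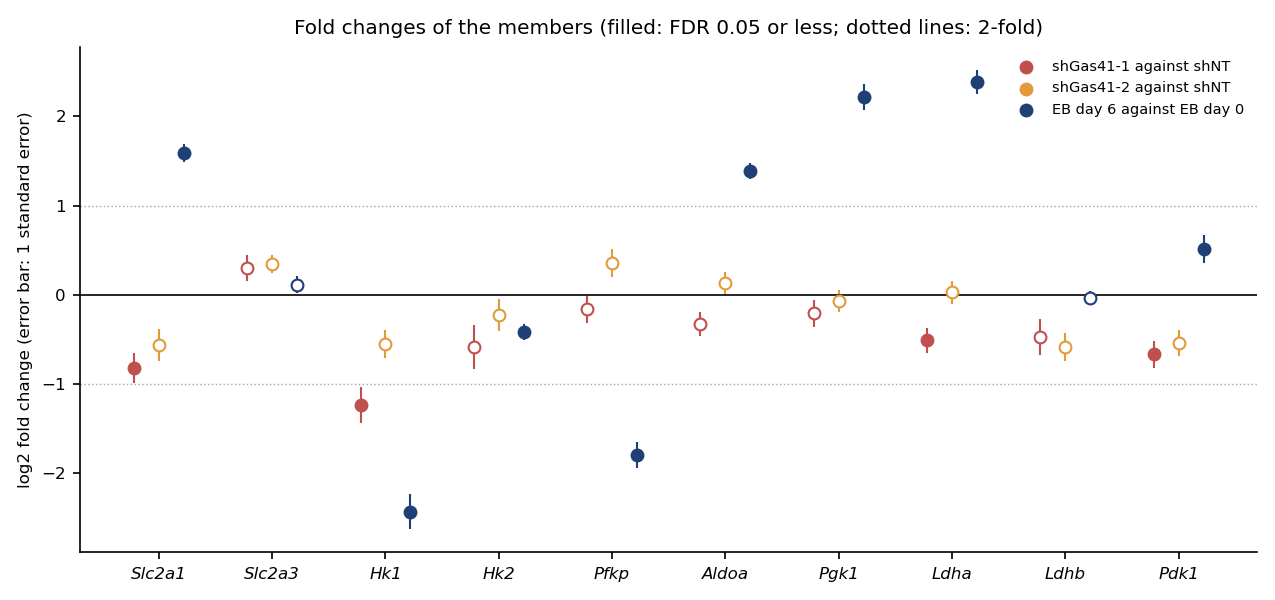
Log2 fold change of each member (vertical axis) with each shRNA against shNT and at EB day 6 against EB day 0, with error bars of 1 standard error and filled points where the FDR is 0.05 or less. The EB values reach from −2.43 for Hk1 to 2.39 for Ldha, and only the shGas41-1 values of Slc2a1, Hk1, Ldha and Pdk1 are filled among the knockdowns.

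The knockdown and the EB response share no libraries, so their difference was tested directly in a fit of all 12. With shGas41-1, 5 members had a lower effect than in EBs (22.4% of 19613 genes did) and 2 a higher one (22.7% of genes). *Ldha* differed most, with a log2 difference of −2.94 (standard error 0.22, FDR = 1.5e-06), followed by *Pgk1* (−2.47), *Slc2a1* (−2.45), *Aldoa* (−1.76) and *Pdk1* (−1.22), while *Pfkp* (1.59) and *Hk1* (1.15) fell more in EBs. With shGas41-2 the same 7 members passed, 5 lower (20.5% of genes) and 2 higher (21.2% of genes), led by *Ldha* (−2.39, standard error 0.23, FDR = 9.7e-06) and *Pfkp* (2.12, standard error 0.26, FDR = 5.2e-05). Both tests use the same shNT and EB libraries, so they are not independent. *Slc2a1*, *Ldha* and *Pdk1* were called in opposite directions with shGas41-1 and in EBs, *Slc2a1* being down 1.76-fold and up 3.01-fold, and *Hk1* was called down in both. The *Hk1* difference with shGas41-1 was not called without EB day 0 replicate 2 (0.84, FDR = 0.069) or EB day 6 replicate 3 (1.03, FDR = 0.052). *Slc2a3*, *Hk2* and *Ldhb* passed neither test.

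The rest of the pathway was followed in 13 gene lists that hold 142 genes besides the members. At EB day 6, 129 of them were tested, 53 were called up and 39 down at any fold, and 31 and 16 at 2-fold or more. Fewer were called down without EB day 0 replicate 3, as were fewer of all genes. At any fold this was 41.1% up and 30.2% down, beside 30.5% and 28.4% of all genes. Of the lactate exporters 4 of 5 tested genes were called up and none down. *Slc16a3*, the lactate exporter of highly glycolytic cells, went from 9.37 and 13.0 CPM to 210 and 208 CPM (log2 fold change 4.31, standard error 0.17), *Emb*, a partner of these carriers, from 24.5 and 26.3 CPM to 205 and 317 CPM, and *Slc16a1* rose with a log2 fold change of 1.15. Among the 18 other glycolytic enzymes tested, 9 were called up and 5 down. The rises included *Tpi1* (log2 fold change 2.78) beside *Pfkl* and *Aldoc*, and, named after their values were seen because of their abundance, *Pkm2* (1.41, 1453 to 3636 CPM on average), a pyruvate kinase, and *Eno1* (1.27, 1253 to 2853 CPM), an enolase. The falls were in genes at low level, such as *Ldhd* (−3.60, from 1.15 CPM).

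Several genes that control the pathway moved at EB day 6 as well. *Pfkfb3*, whose product makes the sugar phosphate that stimulates phosphofructokinase, rose (log2 fold change 1.98) and *9630033F20Rik* (*Tigar*), whose product removes it, fell (−1.78). In the list of pyruvate dehydrogenase and its regulators 1 gene besides *Pdk1* was called up and 6 down, with *Pdk4* falling most (−2.70), yet *Pdk1* supplied most of the kinase RNA per kilobase on both days (58.7% and 67.8%). *Txnip* (−2.23) and *Arrdc4* (−1.91), glucose-responsive genes whose products restrain glucose uptake, both fell. Of 11 further genes of the glucose transporter families, not all of which mainly carry glucose, 4 were called up and 2 down among 7 tested. The largest changes were in *Slc5a1* (−4.26), *Slc2a10* (3.91), *Slc2a12* (3.69) and *Slc2a5* (−2.29), and the highest mean level among these 4 was 4.30 CPM, far below *Slc2a1*.

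Hypoxia targets outside glycolysis, such as *Bnip3*, a mitophagy receptor (log2 fold change 3.97, from 4.79 and 7.25 CPM to 88.1 and 89.6 CPM), were called up in 17 of 22 cases and down in 2, with a median log2 fold change of 1.07. *Adm* (3.63), *Egln3* (3.25) and *Ddit4* (2.97) were the next largest, *Egln3* and *Egln1* (2.45) being oxygen sensors that feed back on the pathway and are counted in the list of regulators too. The 2 genes called down, named after their values were seen, were *Kdm3a* (−0.84) and *Vegfa* (−0.34). This list leaves out the glycolytic enzymes but includes *Pfkfb3* and *Pfkfb4*, which are also in the list of glycolysis control. Among the regulators, *Epas1*, which encodes an alpha subunit of the factors, fell from 44.4 and 45.3 CPM to 0.784 and 0.553 CPM (−5.98), *Arnt2* rose (2.81), and *Hif1a* rose by less than 2-fold (0.58). Of the Myc family, *Mycl1* rose (3.14), *Mxd4* rose (1.61) and *Mxd3* fell (−1.36). Glycogen genes were called up in 5 of 10 cases and down in 1, with *Pgm2* (2.79) and *Gbe1* (2.55) largest. In the pentose phosphate list, *Rpia* fell (−1.99), and *Tktl1* fell from 21 and 30 counts to 1 and 2 counts. In the gluconeogenesis list, *Fbp1* fell (−1.62), and *Fbp2* fell from 131 and 89 counts to 0 and 1 count. The tricarboxylic acid cycle, which oxidises the carbon that *Pdk1* holds back, had 6 genes down and 1 up among 16, none 2-fold, such as *Cs* (−0.41).

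**Figure D4:**
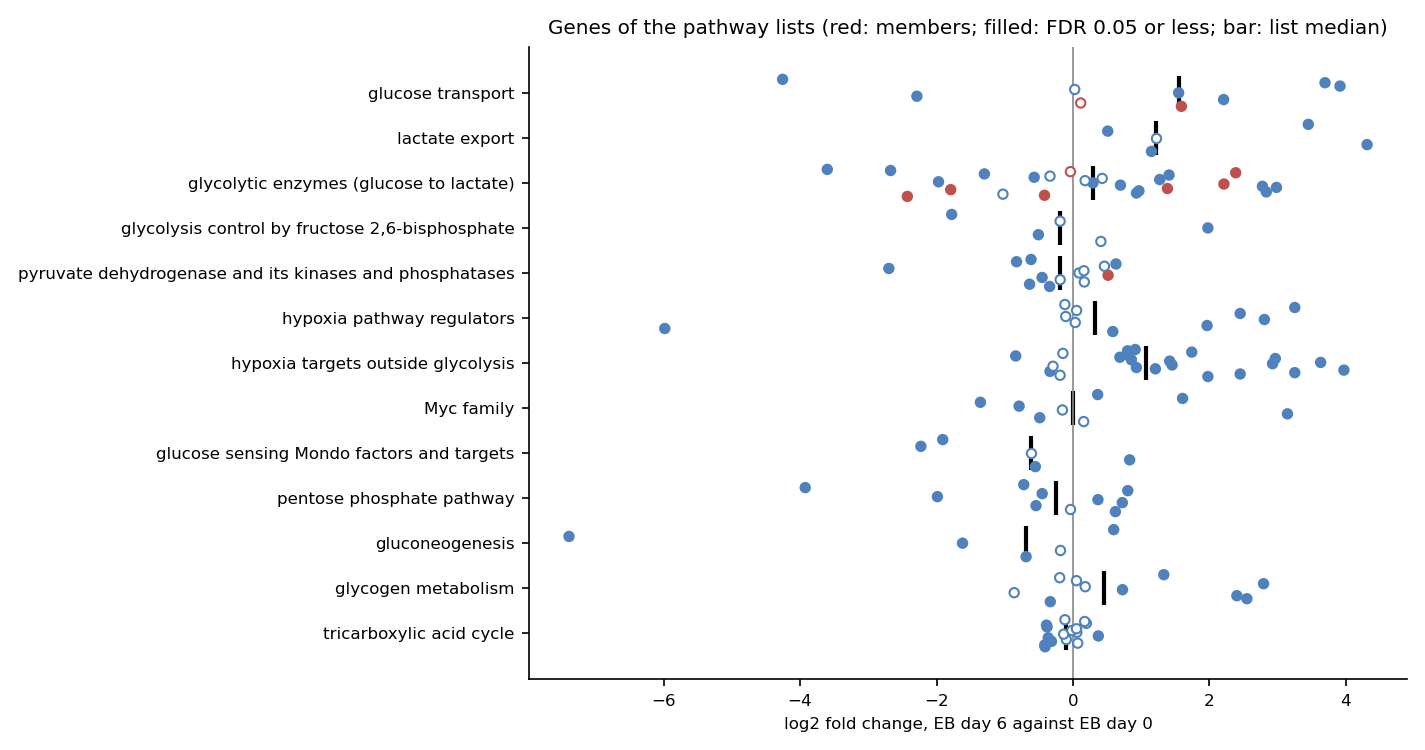
Log2 fold changes at EB day 6 against EB day 0 (horizontal axis) of the tested genes of the 13 pathway lists (rows), with members in red, filled points where the FDR is 0.05 or less and a black bar at the median of each list. The lactate export list (median 1.22) and the hypoxia targets (median 1.07) lie to the right, whereas the tricarboxylic acid cycle (median −0.11) stays near 0. *Fbp2*, the point furthest to the left, had 0 and 1 count at EB day 6, so that its position is not a measured size.

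The same lists were followed with the knockdowns. With shGas41-1, 10 of the 126 listed genes tested were called up and 11 down, that is 7.94% and 8.73% beside 10.8% and 7.73% of all genes. With shGas41-2, 9 and 2 of 128 were called, or 7.03% and 1.56% beside 5.94% and 3.97%. Without shNT replicate 3 the counts were 5 and 4 with shGas41-1, and without shNT replicate 1 they were 15 and 13 with shGas41-2. No lactate exporter, hypoxia regulator or Mondo factor gene was called with either shRNA, and the 22 hypoxia targets had 2 and 1 calls up, both including *Kdm3a*, a histone demethylase (log2 fold change 0.80 and 0.63). The changes of at least 2-fold lay mostly off the main chain. *Rpia*, an enzyme of the pentose phosphate pathway, was at 65.4, 36.7 and 31.3 CPM in shNT, at 284, 201 and 217 CPM in shGas41-1 and at 215 and 123 CPM in shGas41-2 (log2 fold changes 2.47 and 2.00). *Fbp1* (2.86 and 2.53), a gluconeogenic phosphatase, and *Eno4* (1.52 and 1.18) rose with both from low levels. *Rpia* and *Fbp1* thus rose with knockdown and fell at EB day 6.

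Among the 2-fold calls made with a single shRNA, *Slc2a5* (−1.43), *Ldhd* (−1.39), *Pklr* (−1.10) and *G6pc3* (−1.08) fell with shGas41-1, all at mean levels of at most 8.88 CPM in shNT, and *Fbp2* (1.44) and *Tktl1* (1.40) rose with shGas41-2. At lower fold, *Dlat*, a subunit of pyruvate dehydrogenase, fell with shGas41-1 (−0.77), as did *Suclg2* (−0.62) and *Idh3g* (−0.42) of the tricarboxylic acid cycle, *Pfkfb2* rose (0.52), and *Myc* rose with shGas41-2 (0.51). Neural markers (3 genes listed) summed to 10.8 to 11.4 CPM in shNT, to 17.2 to 22.4 CPM in shGas41-1 and to 12.2 to 14.6 CPM in shGas41-2, and trophoblast markers (3 genes listed) to at most 0.912, 2.40 and 1.67 CPM. The pluripotency markers of shGas41-1 (5838 to 6944 CPM) overlapped with shNT (6431 to 6995 CPM), but among them *Klf4* (log2 fold change −1.13, FDR = 0.0055) and *Esrrb* (−1.04, FDR = 0.020) were called at least 2-fold down with shGas41-1, and *Klf4* was called down with shGas41-2 (−0.65, FDR = 0.041). Endoderm markers summed to 3.81 to 4.36 CPM in shNT, to 4.94 to 7.06 CPM in shGas41-1 and to 5.00 to 5.02 CPM in shGas41-2. Streak and mesoderm markers summed to 12.2 to 15.3, 5.59 to 10.2 and 10.2 to 11.8 CPM, and fibroblast markers to 7.87 to 13.5, 4.54 to 6.00 and 9.27 to 9.93 CPM. All these sums except those of the pluripotency markers and, with shGas41-2, of the fibroblast markers lay apart from shNT. Primed epiblast markers summed to 74.3 to 86.5, 61.3 to 105 and 80.6 to 81.6 CPM, and overlapped with shNT. Blood markers overlapped too, as did cardiac markers with shGas41-1. With shGas41-2, cardiac markers summed to 4.24 to 4.26 CPM, above shNT (2.96 to 3.36 CPM). Sums can hide single genes. Outside the pluripotency list, *Fgf5*, *Pax6*, *Cdx2* and *Gata6* were called at least 2-fold up with shGas41-1, and *Eomes*, *Tbx6* and *Thy1* at least 2-fold down. None of the markers outside that list was called with shGas41-2. The part of these shifts in marker sums in the results was not tested.

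Over the 12 libraries, the gene whose log2 level followed each member most closely among 19603 genes was *Gm5537* for *Pgk1* (Pearson's r 1.00), *Ldha-ps2* for *Ldha* (0.997) and *Gm5514* for *Ldhb* (0.964), each of them a copy that shares sequence with its partner. The others were *Dbn1* for *Slc2a1* (0.992), *Trappc9* for *Hk2* (0.988), *Slc41a1* for *Hk1* (0.985), *Chga* for *Pfkp* (0.984), *Mif* for *Aldoa* (0.971), *Qprt* for *Pdk1* (0.941) and *Nell1* for *Slc2a3* (0.934). Each was chosen as the highest of many, so the values describe these 12 libraries only. For members that moved strongly in EBs they may rest largely on the contrast between EB day 6 and the other libraries, which was not tested. For *Slc2a3*, *Hk2* and *Ldhb*, the EB day 6 libraries lay within the range of the others.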

How the data were processed

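RNA was measured in 12 libraries of J1 mESCs (3 shNT, 3 shGas41-1, 2 shGas41-2, 2 EB day 0 and 2 EB day 6), while the 15 ChIP-seq samples were not used here. Per the paper's methods and the submitters' processing notes, the authors prepared RNA with a TruSeq v2 kit, mapped reads to mm9 with TopHat2 (version 2.0.10) and assigned them to genes with htseq-count. The deposited read counts are whole numbers without normalization. Columns deposited beside the counts that hold the authors' own comparisons (fold changes, p-values and FDR) were not used. Columns that the EB table names ESC were read as EB day 0. The study's methods speak of biological repeats for all experiments, but the labels do not say which libraries came from separate cultures. The p-values measure the spread between these libraries, part of which may be technical.

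Counts were analysed in R 4.3.3 with edgeR 4.0.16: filterByExpr (minimum count 10, total 15), TMM scaling, the quasi-likelihood test, and adjustment by Benjamini-Hochberg over all genes tested. Calls needed an FDR of 0.05 or less, at any fold or at an absolute log2 fold change of at least 1. CPM divides counts by the library total, and RPKM divides CPM by the merged exon length in the GENCODE annotation of mm9. Standard errors are the absolute log2 fold change over the square root of the F statistic. The scripts were tested on simulated counts. The floor of 3 counts covers counting error only. DESeq2 1.42.0 and other settings served as alternatives. All members were named, and from each pathway list at most the 4 largest changes past the 2-fold rule in a comparison, or the 2 largest of any fold. A few listed genes that this rule names are not reported here. The members and lists were chosen with earlier results of these data known. Upstream sequences are from RefSeq (GRCm38.p6). Figures were drawn with matplotlib.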

Additional observations from a re-analysis of the deposited data

Results flagged for a closer look

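Members whose knockdown effect differed from their EB effect in the direct test over 12 libraries are listed here with the log2 difference, knockdown effect minus EB effect. With shGas41-1 these were *Ldha* (−2.94), *Pgk1* (−2.47), *Slc2a1* (−2.45), *Aldoa* (−1.76), *Pdk1* (−1.22), *Hk1* (1.15) and *Pfkp* (1.59). With shGas41-2 they were *Ldha* (−2.39), *Pgk1* (−2.31), *Slc2a1* (−2.18), *Pdk1* (−1.08), *Aldoa* (−1.28), *Hk1* (1.85) and *Pfkp* (2.12). In edgeR's quasi-likelihood test the FDR ranged from 1.5e-06 to 0.010 in the first set and from 9.7e-06 to 0.0043 in the second. Both tests draw on the same shNT, EB day 0 and EB day 6 libraries. No group had enough libraries for a test of single outlying values.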

How the results depend on the processing

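The EB calls of at least 2-fold (4 members up, 2 down) and the *Hk1* call with shGas41-1 held in every alternative run, and halved counts and DESeq2's size factors in edgeR moved no count of calls by over 1.5 times. With shGas41-1, where 11 other pathway genes were called down, the count was 17 with library totals alone, 18 with DESeq2, 20 at an FDR of 0.10 and 30 with all 12 libraries in 1 fit. With shGas41-2, where no member and 2 other pathway genes were called down, 4 members and 8 pathway genes were with library totals alone, 4 and 5 without the filter on low counts, 4 and 7 with DESeq2 (1 member up), and 4 and 7 at an FDR of 0.10 (1 member up). The cause was not tested. Whether replicate numbers pair the samples is not settled. Same-numbered deviations correlated at −0.16, 0.20 and −0.65 for shGas41-1, where not every library correlated best with its own number. They correlated at 0.52 and 0.46 for shGas41-2 and at 0.10 for EBs. In a group of 2 libraries the deviations from the group mean mirror each other. A best match with the own number there means only that the correlation was positive, which cannot settle the pairing. With the replicate block 2 members fell with shGas41-1 (4 of the other pathway genes were up and 3 down), and 3 members rose and 4 fell with shGas41-2 (28 and 22 pathway genes). Over all genes, the block moved the calls from 1971 up and 1412 down to 1107 and 442 with shGas41-1 (302 in place of 438 down at 2-fold) and from 1094 and 730 to 3536 and 3630 with shGas41-2 (1122 in place of 728 up at 2-fold), all 12 libraries in 1 fit gave 2745 and 2680 with shGas41-1, DESeq2 2170 down with shGas41-1 and 1412 down with shGas41-2, and library totals alone 1289 down with shGas41-2 (246 in place of 160 at 2-fold). At an FDR of 0.10, 2346 genes were down with the first shRNA, while the second had 1884 up and 1513 down. Without the filter on low counts, 969 of 25216 genes were down with shGas41-2. The block changed no EB call of a member.

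Leaving out 1 library at a time, members called down with shGas41-1 ranged from 1 to 5, other pathway genes called up from 5 to 11 and down from 3 to 17. The lower counts came without shNT replicate 2, shNT replicate 3 or shGas41-1 replicate 1. In these fits 479, 555 and 517 of all genes were called down, in place of 1412. With shGas41-2, members called down ranged from 0 to 5 (5 without shNT replicate 1) and up from 0 to 1 (without shNT replicate 3), and pathway genes up from 3 (without either shGas41-2 library) to 15 and down from 0 to 13 (both highest without shNT replicate 1). At EB day 6, pathway genes called down ranged from 17 (without EB day 0 replicate 3) to 37. Members with a higher effect of shGas41-1 than of EB ranged from 1 to 2. Over all genes, 1933 of 18327 were called down with shGas41-2 without shNT replicate 1. Fits that leave 1 library in a group assume that it varies like the others.

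Signs reversed in 9 values, none of them called as reported. With shGas41-2, *Ldha* was −0.053 with library totals alone, and between −0.17 and 0.20 without single libraries, *Pgk1* between −0.24 and 0.071 and *Aldoa* between −0.058 and 0.29. *Ldhb* in EBs lay between −0.093 and 0.016. Between the shRNAs, *Ldhb* was −0.018 with the replicate block and between −0.070 and 0.33 without single libraries, *Slc2a3* between −0.18 and 0.052, *Pdk1* between −0.25 and 0.0093 and *Pgk1* between −0.29 and 0.036. The *Hk2* difference between shGas41-1 and EB effects lay between −0.38 and 0.015. Why no member was called with shGas41-2 was not tested.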
